A study of Mus musculus with 20 samples.

Results

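The genes described here are 10 erythroid genes measured in mouse blood: the transcription factor genes Gata1, Klf1, Tal1 and Nfe2, the Gata1 cofactor gene Zfpm1, the erythropoietin receptor gene Epor, the transferrin receptor gene Tfrc, the hemoglobin chaperone gene Ahsp, and the mitochondrial clearance genes Bnip3l and Bcl2l13. Members were chosen by name, and every non-control probe carrying one of these names in the array files was taken, which gave 17 probes of the 39429 on the array and 10 of 31093 gene names. Blood RNA of 20 male mice, depleted of globin transcripts, was labeled with Cy3 and hybridized to 1-color Agilent arrays, 1 array per mouse and 5 arrays in each of 4 groups. The groups were mice labelled WT (C57BL/6) and mice labelled Il10-/- (B6.129P2-Il10tm1Cgn/J, a germline knockout on the same background). Each genotype was given sham exposure (0 Gy) or 7 Gy of X-rays to the whole body, and blood was drawn 24 h later. The mice were littermates of 8 to 10 weeks, and blood came from cardiac puncture.

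Red cells form when the factors Gata1 and Tal1, with cofactors such as Zfpm1 (Fog1), switch on the erythroid program, and when Klf1 and Nfe2 drive the globin genes. Erythropoietin acts through Epor to keep erythroid progenitors alive, and iron enters through Tfrc, which carries transferrin into the cell. Late in maturation the reticulocyte, the youngest red cell in blood, clears its mitochondria through Bnip3l (Nix), and Ahsp holds free alpha globin until it pairs with beta globin. Gata1, Tal1, Nfe2 and Zfpm1 are also used by megakaryocytes, the parent cells of platelets, and Gata1 by mast cells and eosinophils, so that blood holds several sources of these transcripts.

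The targeted gene was read first. All levels below are log2 signals after subtraction of the array's median. In mice labelled WT the Il10 probe read −1.54 ± 0.45 without and −1.85 ± 0.61 with irradiation (mean ± SD, n = 5 each). In mice labelled Il10-/- it read 2.75 ± 0.31 and 2.71 ± 0.62 (mean ± SD, n = 5 each). The probe was well above background on 0 arrays of mice labelled WT and on all 5 arrays of either group labelled Il10-/-, which is the opposite of a lost transcript, so directions between genotypes rest on the labels, and WT and Il10-/- below stand for the mice so labelled. The reason for the Il10 signal was not tested. Of 17 neutrophil genes, 10 were called higher in unirradiated Il10-/- than in unirradiated WT, with a median difference of 1.90. From blood counts, the authors also report a higher percentage of neutrophils in Il10-/- mice before irradiation. Between 29.9% and 57.8% of the spots on an array were well above background, with the lowest share on replicate 5 of unirradiated WT. Each of 5 slides carried 1 array per group, and the replicate number marks the slide. Of all pairs within a group, replicates 1 and 2 lay closest. Over probes printed repeatedly they differed with a robust SD of 0.148 to 0.275 (log2), where spot noise would give 0.0441 to 0.0519. Spot noise within an array leaves out labeling and slide differences, so this cannot tell separate mice from repeated arrays of the same RNA. They were counted as separate mice because the labels list them so. Defining markers of blood cells were present: 9 of 10 globin genes on the array, 20 of 20 platelet genes, 17 of 17 neutrophil genes and 12 of 13 B-cell genes were above background.

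In mice labelled WT, Tal1 and Epor rose after 7 Gy and Ahsp and Bnip3l fell. In mice labelled Il10-/-, Ahsp, Bnip3l and 1 of 3 Tfrc probes fell and no member rose past the threshold. The threshold for a call was a limma p below 0.001 together with a false discovery rate under 10% (Benjamini-Hochberg) over the 18587 features tested, among them 15 member probes of 9 genes. Of the 9 genes, 4 had a called probe in the response of mice labelled WT and 3 in that of mice labelled Il10-/-. By probes, 6 of 15 were called in WT, 2 higher and 4 lower, and 5 of 15 in Il10-/-, all lower. Over all features 6.8% were called in the WT response, 4.48% higher and 2.32% lower, and 9.16% in the Il10-/- response, 3.29% higher and 5.87% lower. By ranges, 6 of the 15 member probes had separate 0 Gy and 7 Gy groups in either response, against 16.1% of all features in WT and 17% in Il10-/-. Bnip3l holds 4 of the probes and Zfpm1 3. The WT count fell to 2 genes, Ahsp and Bnip3l, without unirradiated replicate 1 or 3 or irradiated replicate 3, 4 or 5, the Il10-/- count stayed at 3 whichever array was dropped, and taking the mean of replicates 1 and 2 as 1 sample gave 2 and 1. In bulk blood, fewer cells of a type and less RNA per cell cannot be told apart. The authors report that counts of red cells and of platelets did not differ significantly after irradiation in either genotype. How these counts relate to the array values was not tested.

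**Figure D1:**
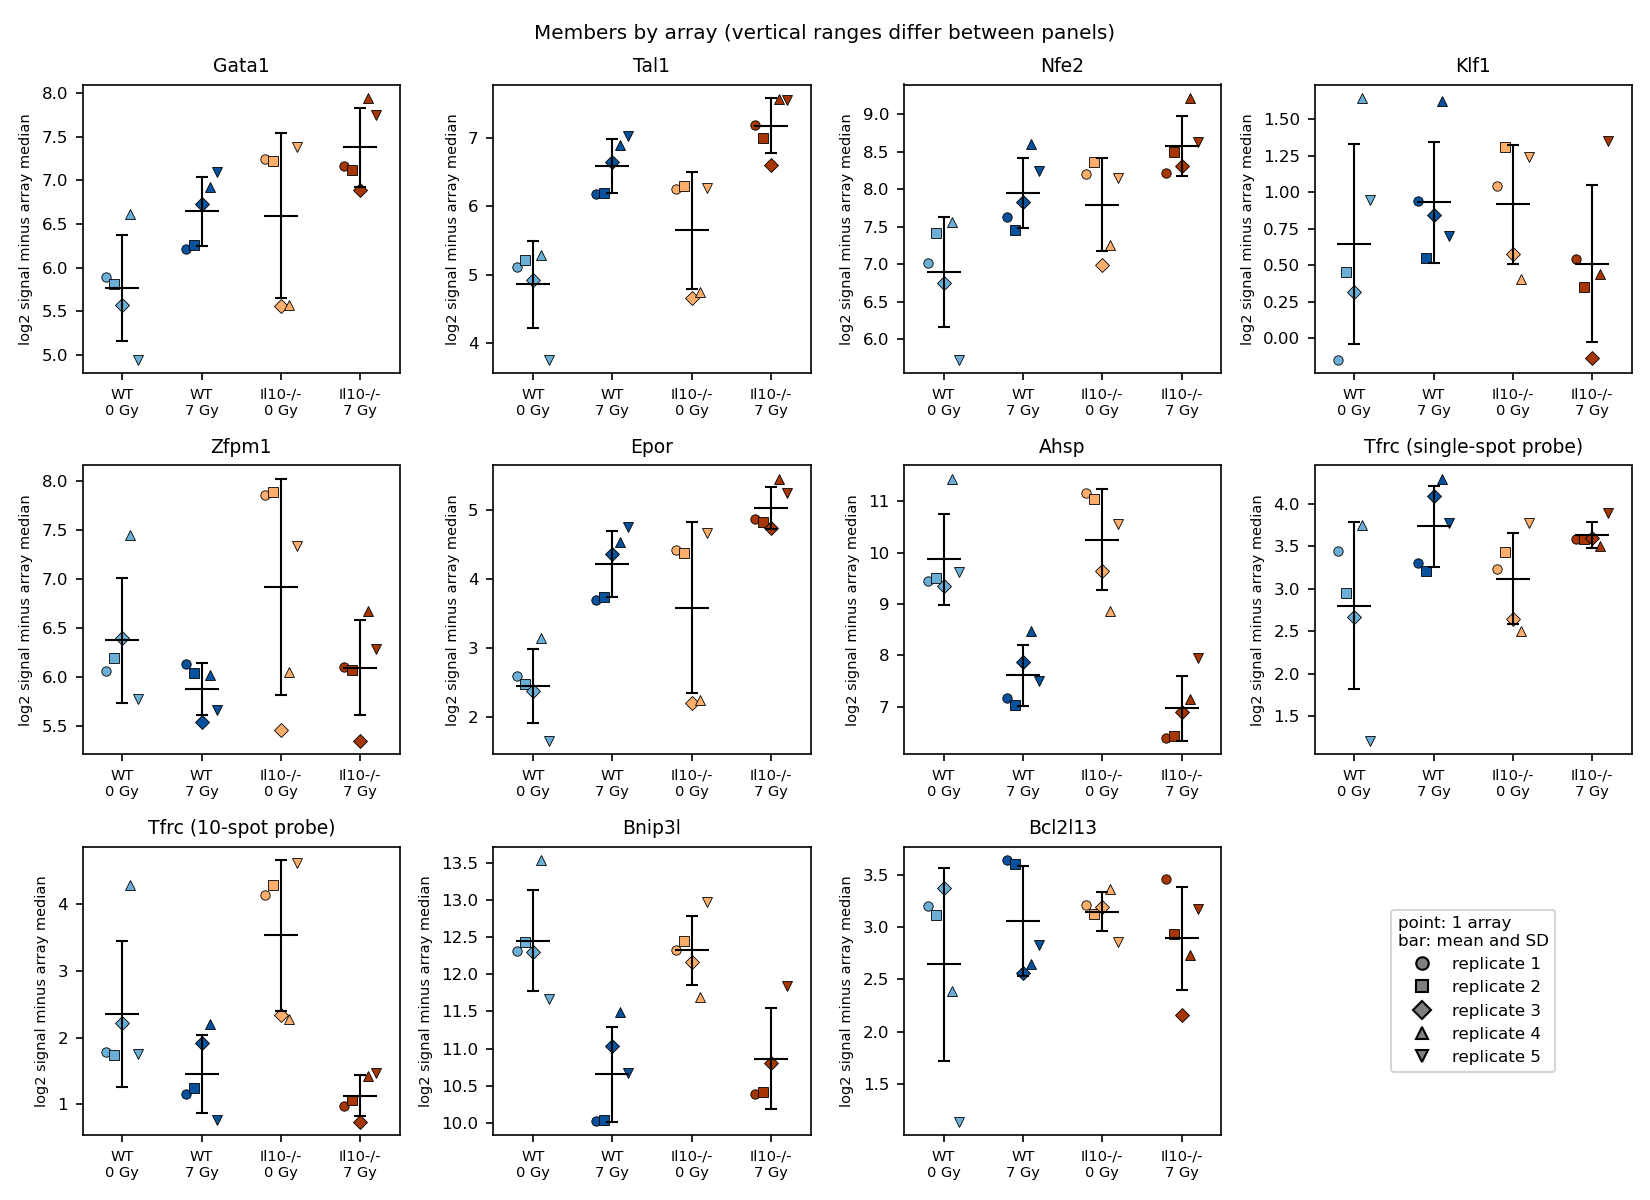
Log2 signal relative to the array median (vertical axis) of each member's brightest probe, and of a second Tfrc probe, on the 20 arrays (horizontal axis: mice labelled WT and Il10-/-, 0 Gy and 7 Gy). Points are arrays with 1 symbol per replicate number, and bars are means with SD. Tal1 and Epor sit higher after 7 Gy in both genotypes and Ahsp lower, with no overlap between the 0 Gy and 7 Gy arrays of a genotype, and replicates 3 and 4 of unirradiated Il10-/- lie below replicates 1, 2 and 5 for Gata1, Tal1 and Epor.

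Tal1 encodes a basic helix-loop-helix factor that binds E-boxes next to Gata1. Its probe (chromosome 4 of mm9, 114744219 to 114744278, plus strand) read 5.11, 5.22, 4.92, 5.29 and 3.75 in replicates 1 to 5 of unirradiated WT, and 6.18, 6.20, 6.65, 6.90 and 7.03 after 7 Gy. The lowest irradiated array lay above the highest unirradiated one, and replicate 5 without irradiation was far below the other four. The log2 difference was 1.73 (SE 0.40, adjusted p = 0.0102 in limma), or 3.33-fold. In Il10-/- the values were 6.25, 6.30, 4.66, 4.75 and 6.28 at 0 Gy and 7.19, 7.00, 6.60, 7.56 and 7.56 at 7 Gy. These groups did not overlap either, but unirradiated replicates 3 and 4 stood well below the other three. The difference of 1.53 (SE 0.39, adjusted p = 0.016 in limma) did not pass, its unadjusted limma p being 0.00177. It was called with the arrays scaled to the reference array of the authors' table, at 1.68, and with quantile normalization, at 1.64. The WT call was lost without unirradiated replicate 1 or 3 or irradiated replicate 3, 4 or 5, with values from 1.62 to 1.80, and with replicates 1 and 2 averaged, at 1.91.

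Epor encodes the receptor through which erythropoietin signals to Jak2 and Stat5. Its probe (chromosome 9 of mm9, 21763422 to 21763481, minus strand) read 2.60, 2.47, 2.38, 3.15 and 1.66 in unirradiated WT and 3.70, 3.74, 4.36, 4.53 and 4.74 in irradiated WT. Every irradiated array was above every unirradiated one, with a log2 difference of 1.76 (SE 0.40, adjusted p = 0.00842 in limma), or 3.39-fold. In Il10-/- it read 4.42, 4.37, 2.21, 2.25 and 4.67 at 0 Gy and 4.86, 4.82, 4.73, 5.45 and 5.24 at 7 Gy. The groups were adjacent without overlap, and the fit gave 1.44 (SE 0.49, adjusted p = 0.0555 in limma), which was not called. On each of the 5 slides the irradiated Il10-/- array was the higher one, by 0.44 to 3.20 with a median of 0.57. The WT call was lost without unirradiated replicate 1, 2 or 3 or irradiated replicate 3, 4 or 5, at 1.63 to 1.80, with normexp correction, at 1.19, with quantile normalization, at 1.52, and with replicates 1 and 2 averaged, at 1.91.

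The windows before the starts of Tal1 and Epor are shown because these genes had the largest rises among the members, together with that of Klf1, the remaining member whose window holds a GATA motif. RefSeq (GRCm38.p6) gave windows of 250 bases before to 50 after the start for 7 of the 10 members, 9 windows in all; Nfe2, Ahsp and Bnip3l had none. The 250 bases before the start follow, along each gene's strand, with a match to AGATAA or TGATAA on either strand in capitals. They are chr4:115056176-115056425 on the plus strand for the first Tal1 start, chr9:21963577-21963826 on the minus strand for Epor, and chr8:84901732-84901981 on the plus strand for Klf1.
Tal1: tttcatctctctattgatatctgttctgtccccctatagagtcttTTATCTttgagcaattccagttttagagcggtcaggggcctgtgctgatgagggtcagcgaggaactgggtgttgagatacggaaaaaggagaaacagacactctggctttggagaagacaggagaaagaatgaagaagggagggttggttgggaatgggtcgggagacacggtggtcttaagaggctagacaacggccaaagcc
Epor: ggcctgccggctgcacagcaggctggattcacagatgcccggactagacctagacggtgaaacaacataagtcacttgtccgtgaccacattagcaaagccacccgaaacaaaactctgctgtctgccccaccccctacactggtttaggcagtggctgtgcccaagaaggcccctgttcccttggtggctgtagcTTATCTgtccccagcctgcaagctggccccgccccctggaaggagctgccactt
Klf1: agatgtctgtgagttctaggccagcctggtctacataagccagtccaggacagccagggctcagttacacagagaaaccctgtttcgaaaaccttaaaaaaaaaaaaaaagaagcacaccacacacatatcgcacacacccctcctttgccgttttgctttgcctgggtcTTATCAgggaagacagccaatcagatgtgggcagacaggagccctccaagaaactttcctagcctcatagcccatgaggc
A GATA motif was found in these 3 of the 9 member windows of 300 bases, and in 18.6% of the 32851 windows of all genes. Counting back from the start, the match lies at −205 to −200 for Tal1, −54 to −49 for Epor and −80 to −75 for Klf1, in each case on the strand opposite to the gene. CCNCNCCC, the CACCC box bound by Klf1, was in 7 of 9 windows against 49.5% of all. CAGNTG, the E-box, was in 5 of 9 against 51.4%, and TGAGTCA, the NF-E2 site, in 0 of 9 against 5.2%. Both strands were searched, and a match of letters is no measured site.

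Gata1 encodes the zinc finger factor at the head of the erythroid program. On its probe (chromosome X of mm9, 7536392 to 7536451, minus strand) unirradiated WT read 5.89, 5.81, 5.58, 6.62 and 4.94 and irradiated WT 6.22, 6.26, 6.73, 6.92 and 7.10. The groups overlapped through unirradiated replicate 4. The difference of 0.88 (95% interval 0.03 to 1.72, adjusted p = 0.155 in limma) was not called, although it was positive on 5 of 5 slides. In Il10-/- the arrays read 7.25, 7.22, 5.56, 5.57 and 7.38 at 0 Gy and 7.17, 7.12, 6.89, 7.95 and 7.75 at 7 Gy. Unirradiated replicates 1, 2 and 5 were thus within the irradiated range, and the difference of 0.78 (95% interval −0.12 to 1.68, adjusted p = 0.2 in limma) was not called.

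Nfe2 encodes the larger subunit of the NF-E2 factor, which acts on globin and platelet genes. Its probe (chromosome 15 of mm9, 103078838 to 103078897, minus strand) read 6.89 ± 0.73 without and 7.95 ± 0.47 with irradiation in WT (mean ± SD, n = 5 each). In Il10-/- the means were 7.79 ± 0.62 and 8.58 ± 0.39 (SD, n = 5 each). The differences of 1.06 (95% interval 0.16 to 1.96, adjusted p = 0.107 in limma) and 0.78 (95% interval 0.09 to 1.48, adjusted p = 0.101 in limma) were not called, and both were positive on 5 of 5 slides.

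Zfpm1 encodes Fog1, which Gata1 needs as a partner. Of its 3 probes, A_55_P1994887 and A_55_P2048518 cover nearly the same 60 bases of chromosome 8 (124861092 to 124861151 and 124861087 to 124861146 of mm9) and count as 1 reading. On the first, WT read 6.07, 6.19, 6.40, 7.45 and 5.78 at 0 Gy and 6.13, 6.04, 5.54, 6.02 and 5.67 at 7 Gy. Il10-/- read 7.86, 7.89, 5.46, 6.06 and 7.34 at 0 Gy and 6.10, 6.07, 5.35, 6.67 and 6.29 at 7 Gy. The differences of −0.50 (95% interval −1.33 to 0.33) and −0.82 (95% interval −1.84 to 0.19) were not called, and they lie on the other side of 0 from those of Gata1, Tal1 and Nfe2. The remaining probe, A_55_P1987984 (124861353 to 124861412), was well above background on 15 of 20 arrays and differed by 0.03 in WT and −0.52 in Il10-/-, neither called.

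Klf1 encodes the factor of the adult beta globin gene. Its probe (chromosome 8 of mm9, 87428881 to 87428940, plus strand) was well above background on 16 of 20 arrays, with group means of 0.64 ± 0.68, 0.93 ± 0.41, 0.92 ± 0.40 and 0.51 ± 0.54 (SD, n = 5 each) in unirradiated and irradiated WT and unirradiated and irradiated Il10-/-. The groups overlapped widely. Its differences of 0.29 (95% interval −0.58 to 1.16) in WT and −0.41 (95% interval −1.06 to 0.25) in Il10-/- were not called.

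**Figure D2:**
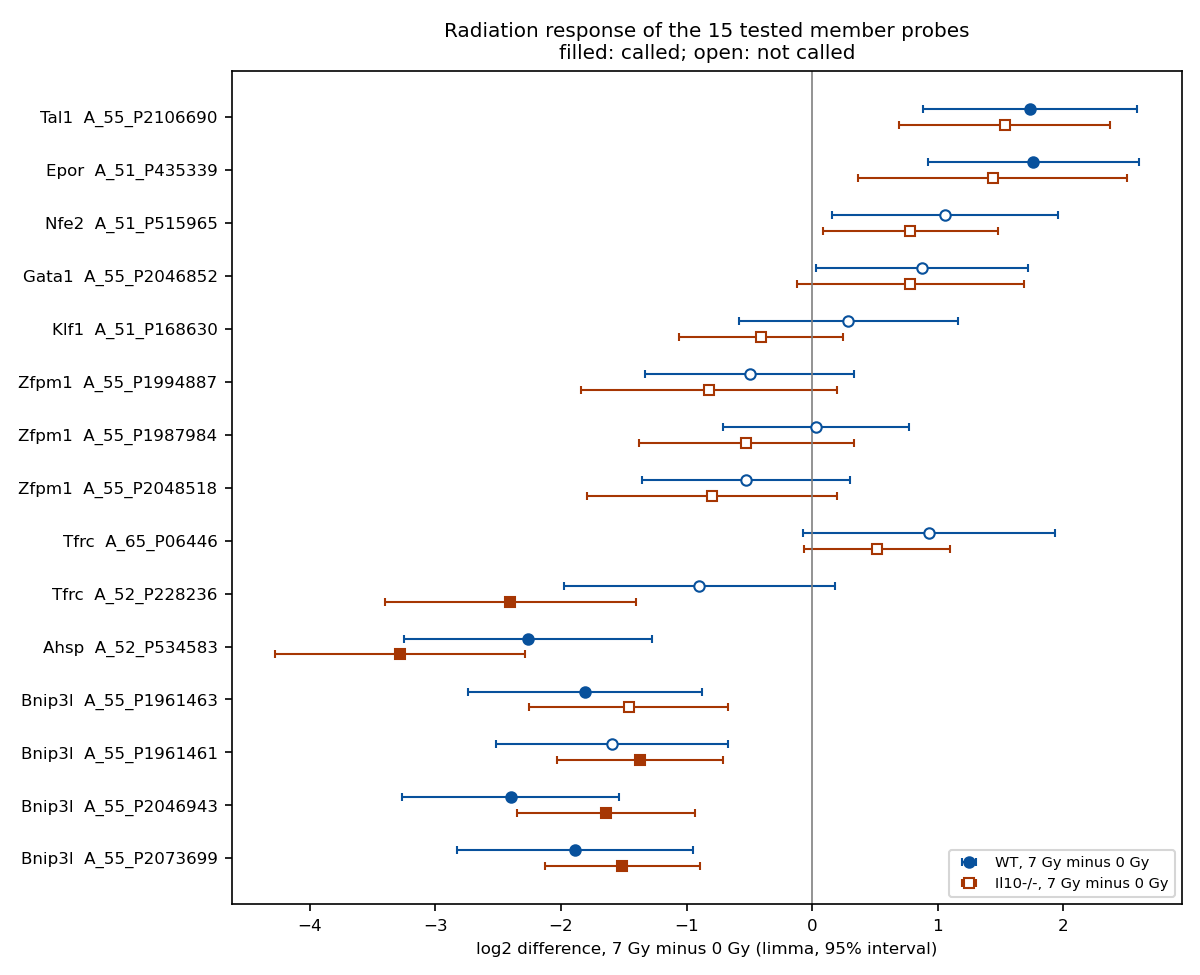
Log2 difference between 7 Gy and 0 Gy (horizontal axis) with its 95% interval for the 15 tested member probes (vertical axis), in mice labelled WT (circles) and Il10-/- (squares). Filled symbols passed the threshold. Tal1 and Epor lie to the right of 0, Ahsp and all 4 Bnip3l probes to the left, and the Tfrc probes lie on opposite sides.

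Tfrc was read by 3 probes that did not move together. A_65_P06446 is 1 spot (chromosome 16 of mm9, 32620470 to 32620529), and A_52_P228236 is printed 10 times (32632255 to 32632314). The third, A_51_P167876, was well above background on 1 of 20 arrays, was not tested and is left aside. The 10-spot probe read 4.15, 4.29, 2.34, 2.28 and 4.63 in unirradiated Il10-/- and 0.98, 1.06, 0.74, 1.42 and 1.47 after 7 Gy. The groups were far apart, and the fit gave −2.40 (SE 0.46, adjusted p = 0.00403 in limma), or 5.3-fold lower. Of the irradiated arrays, 3 had this probe well above background and 2 did not. In WT it read 1.79, 1.74, 2.23, 4.29 and 1.75 at 0 Gy and 1.16, 1.25, 1.92, 2.2 and 0.77 at 7 Gy. Here replicate 4 without irradiation stood alone at the top, the groups overlapped, and the difference of −0.90 (95% interval −1.98 to 0.18, adjusted p = 0.264 in limma) was not called, though it was negative on 5 of 5 slides. With replicates 1 and 2 averaged the Il10-/- value was −2.21 and no longer called (adjusted p = 0.0297 in limma).

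The differences of the single-spot Tfrc probe had the other sign. WT read 3.44, 2.95, 2.66, 3.75 and 1.21 at 0 Gy and 3.30, 3.21, 4.10, 4.3 and 3.77 at 7 Gy, while Il10-/- read 3.24, 3.43, 2.64, 2.50 and 3.77 at 0 Gy and 3.59, 3.58, 3.59, 3.51 and 3.89 at 7 Gy. Its differences of 0.93 (95% interval −0.07 to 1.94) and 0.52 (95% interval −0.07 to 1.10) were not called. The difference between the probes on the same array is unchanged by any constant subtracted per array. Centered on its mean over the arrays, it ran from −0.45 to 1.74 in unirradiated and −1.80 to −0.76 in irradiated WT. In Il10-/- it ran from 0.90 to 2.11 and from −1.66 to −0.89. This comparison was chosen after the values were seen, and which transcripts each probe reads was not tested.

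Ahsp fell in both genotypes, with the largest fall of any member probe in Il10-/- and, after the Bnip3l probe on chromosome 14, the next largest in WT. The probe is shown because this change is read by it alone: the array files give its 60 bases without a genome position.
Ahsp probe: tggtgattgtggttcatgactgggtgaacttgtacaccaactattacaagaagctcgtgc
Unirradiated WT read 9.45, 9.50, 9.34, 11.44 and 9.61, and irradiated WT 7.16, 7.03, 7.88, 8.48 and 7.5. No irradiated array reached the lowest unirradiated one, and limma gave −2.26 (SE 0.47, adjusted p = 0.00516), or 4.79-fold lower. In Il10-/- the probe read 11.16, 11.05, 9.64, 8.86 and 10.55 at 0 Gy and 6.40, 6.44, 6.90, 7.15 and 7.95 at 7 Gy. Again there was no overlap, and limma gave −3.28 (SE 0.46, adjusted p = 0.000619), or 9.72-fold lower. Ahsp stayed called with each array left out in turn, from −2.48 to −1.87 in WT and from −3.63 to −3.05 in Il10-/-. It was lost with normexp correction of the background, at −1.59 in WT (adjusted p = 0.101 in limma) and −3.46 in Il10-/- (adjusted p = 0.677 in limma).

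Bnip3l encodes a receptor on the outer mitochondrial membrane that reticulocytes use to remove mitochondria. All 4 of its probes had a lower mean after 7 Gy in both genotypes, and the irradiated array was the lower one on all 5 slides of WT. The array design places 3 of them on chromosome 12 of mm9 (18224254 to 18224537) and 1, A_55_P2046943, on chromosome 14 (67604077 to 67604136), and whether the sequences share signal was not tested. On the chromosome 14 probe, WT read 11.78, 11.81, 11.73, 12.64 and 11.16 at 0 Gy and 8.94, 8.88, 9.74, 10.26 and 9.29 at 7 Gy. These are separate ranges, with a difference of −2.40 (SE 0.41, adjusted p = 0.0016 in limma). Il10-/- read 11.74, 11.80, 11.16, 11.04 and 12.27 at 0 Gy and 9.71, 9.46, 9.60, 10.15 and 10.85 at 7 Gy. The ranges did not meet, and limma gave −1.64 (SE 0.33, adjusted p = 0.0049). The 3 chromosome 12 probes gave −1.89 to −1.59 in WT, 2 of them called, and −1.51 to −1.37 in Il10-/-, 2 of them called. One of them, A_55_P1961463, is the brightest Bnip3l probe and is drawn in the plot of members by array. In WT it was called at −1.81 (adjusted p = 0.0129 in limma), and 8 of the 10 fits with 1 array left out lost this call. It was marked as uneven on 1 irradiated Il10-/- array and rests on 4 arrays there. Its Il10-/- groups overlapped, and the difference of −1.46 (adjusted p = 0.016 in limma) was not called. Bnip3l kept at least 1 called probe whichever array was dropped. With replicates 1 and 2 averaged it was called in WT and not in Il10-/-, and with normexp correction it was called in neither.

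Bcl2l13 encodes another mitochondrial receptor for autophagy. Its only probe (chromosome 6 of mm9, 120842801 to 120842860, plus strand) varied too little to pass the filter on change and was not fitted. It read 3.20, 3.12, 3.38, 2.39 and 1.14 in unirradiated WT and 3.65, 3.61, 2.56, 2.64 and 2.83 after 7 Gy, and 3.21, 3.13, 3.19, 3.37 and 2.86 and 3.46, 2.94, 2.16, 2.73 and 3.18 in Il10-/-. The arrays overlapped in both genotypes, and the means differed by 0.41 in WT (p = 0.476) and by −0.26 in Il10-/- (p = 0.333) in 2-sided exact permutation tests of 5 arrays against 5, which cannot go below 0.00794. The 2 mitochondrial receptor genes thus gave unlike readings, Bnip3l with all probes lower and Bcl2l13 with none separated; the difference between them was not tested.

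Because median scaling sets the zero of each array, differences between members were also taken within an array and centered on their mean over the arrays, a choice made after the values were seen and given without a test. Ahsp minus Gata1 went from 2.03 ± 0.60 to −1.11 ± 0.43 in WT and from 1.57 ± 0.40 to −2.49 ± 0.47 in Il10-/- (SD, n = 5 each). Ahsp minus Tal1 went from 2.41 ± 0.92 to −1.59 ± 0.42 and from 2.00 ± 0.39 to −2.82 ± 0.53 (SD, n = 5 each). Bnip3l minus Tal1 went from 1.98 ± 0.47 to −1.56 ± 0.41 (SD, n = 5 each) and from 1.06 ± 0.59 (SD, n = 5) to −1.84 ± 0.55 (SD, n = 4). In all of these the irradiated and unirradiated arrays of a genotype did not overlap. Between irradiated and unirradiated arrays Ahsp and Bnip3l shifted relative to Tal1 and Gata1, which no constant subtracted per array can alter. These differences were not taken with quantile normalization or normexp, which can alter them.

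**Figure D3:**
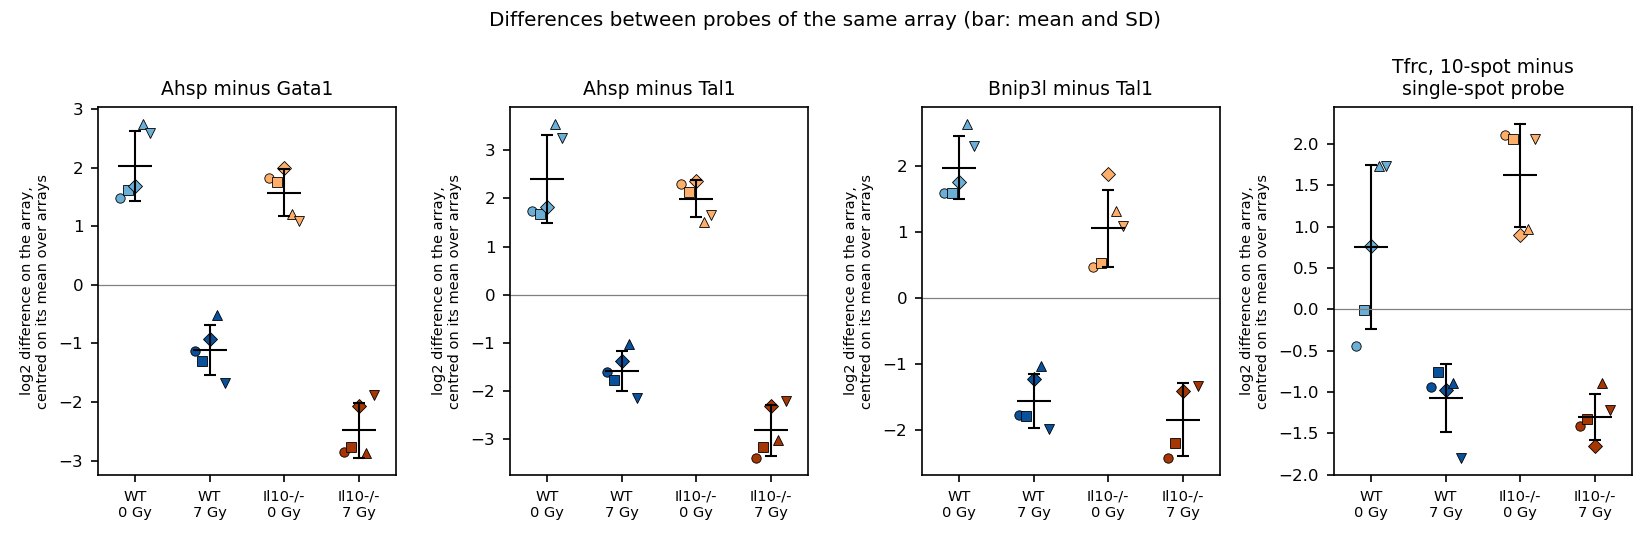
Log2 difference between a pair of probes on the same array, centered on its mean over the arrays (vertical axis), by group (horizontal axis: mice labelled WT and Il10-/-, 0 Gy and 7 Gy). Points are arrays with 1 symbol per replicate number, and bars are means with SD. In every panel the irradiated arrays lie below the unirradiated arrays of their genotype, from −1.68 to −0.52 against 1.48 to 2.75 for Ahsp minus Gata1 in WT.

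Other erythroid regulators, listed apart from the members, moved in both directions. Of 21 tested, 2 were called higher and 2 lower in WT, and 2 higher and 6 lower in Il10-/-, with median differences of −0.30 and −0.48 where the median over all features was −0.02 and −0.10. Gfi1b, a repressor of erythroid cells and megakaryocytes, rose by 1.98 in WT and 1.76 in Il10-/-, and Nfix, a nuclear factor I gene, by 2.22 and 1.25. E2f2, a cell cycle factor of erythroblasts, differed by −2.54 and −2.80. Bcl11a, which silences fetal globin and is also a B-cell gene, differed by −4.34 and −4.68, and Myb, a progenitor factor, by −1.87 in Il10-/-. All of these were called.

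Of 23 erythroid markers other than the members, 11 were called lower in WT and 16 in Il10-/-, with 0 called higher, 3 of 23 above 0 in either genotype and median differences of −1.80 and −2.22. Add2, a membrane skeleton gene, differed by −3.09 in WT and −3.48 in Il10-/-, and Ank1, ankyrin, by −3.35 in Il10-/-. The mean log2 signal of the 24 markers above background ran from 5.33 to 7.26 in unirradiated and 4.2 to 5.20 in irradiated WT, and from 5.63 to 7.11 and 4.15 to 5.25 in Il10-/-. Globin RNA had been depleted before labeling. Of 9 globin genes tested, 1 was called lower in each genotype, Hbb-bh1 in WT (−1.77) and Hbq1b in Il10-/- (−1.41). The adult genes were not called: Hba-a1 gave 0.12 in WT and 0.32 in Il10-/-, Hba-a2 0.20 and 0.38, Hbb-b1 −0.23 and −0.32, Hbb-b2 −0.36 and −0.19, and Hbb-bt −0.07 and −0.14. The others, Hbb-y (−0.66 and −0.43) and Hbq1a (0.19 and 0.24), were not called either, and Hba-x was not above background. In WT 0 globins were called with the 75th percentile, the reference array, quantile normalization or the series table, and with the 75th percentile 0 of the 9 were above 0. Quantile normalization left 4 globins past the filter, with medians of −1.16 in WT and −0.86 in Il10-/-.

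Iron genes split. Of 23 tested, 4 were called higher and 3 lower in WT, and 0 higher and 4 lower in Il10-/-. With the 75th percentile, the reference array, quantile normalization or the series table, 5 were called lower in WT and 1 higher in Il10-/-. The number called higher in WT ran from 3 with the 75th percentile to 5 with the reference array. Slc25a37 (mitoferrin), which brings iron into the mitochondria of erythroid cells, differed by −3.25 in WT and −2.47 in Il10-/-. Glrx5, an iron-sulfur cluster gene, differed by −2.29 and −2.53, and Slc48a1, a heme transporter, by −2.08 and −1.64. Among the genes called higher in WT were Cp (ceruloplasmin, 6.72), Tfr2 (transferrin receptor 2, 5.54) and Trf (transferrin, 4.52), which the liver makes in quantity. Of 25 liver genes, 16 were called higher in WT, 6 with the series table, and 0 in Il10-/-, and their mean log2 signal ran from 0.62 to 2.11 in unirradiated and 2.67 to 10.75 in irradiated WT, and from 2.14 to 9.08 and 1.61 to 9.0 in Il10-/-. Trf is itself on this liver list, and Tfr2 is on both the iron list and the erythropoietin receptor list, so the lists are not separate. The part of liver RNA in the values of Cp, Tfr2 and Trf was not tested. Of 15 genes of erythropoietin receptor signaling, 2 were called higher in WT, Tfr2 and Socs2 (a feedback inhibitor, 1.51), and 1 was lower in both, Bcl2l1 (Bcl-xL, the survival gene of late erythroblasts), at −2.19 in WT and −1.97 in Il10-/-. Of 22 mitophagy and autophagy genes, Map1lc3a was called higher in WT (2.04) and none in Il10-/-, with medians of 0.66 and −0.09. Of this list 0 genes were called lower in either genotype in limma. These values moved with the scaling: the WT median was 0.014 with the 75th percentile and −0.022 with quantile normalization, 4 genes were called higher in WT with the reference array and 5 with the series table, and 1 was called lower in WT under each of these 4. In Il10-/- 1 was called higher under each of them except the 75th percentile.

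Platelet and megakaryocyte genes, 20 in all, are listed because they share Gata1, Tal1 and Nfe2. All 20 had differences above 0 in both genotypes, with medians of 1.28 in WT and 1.17 in Il10-/-, while 1 passed the threshold, Rgs18, a regulator of G protein signaling in platelets, at 1.74 and 1.51. All 20 stayed above 0 in both genotypes with the 75th percentile, the reference array, quantile normalization and the series table, which called 2 to 7 of them in WT. The mean log2 signal of the list on replicates 1 to 5 was 7.00, 7.13, 6.90, 7.23 and 5.87 in unirradiated WT and 7.49, 7.66, 8.17, 8.54 and 8.56 after 7 Gy. In Il10-/- it was 8.82, 8.98, 6.55, 6.12 and 8.47 at 0 Gy and 8.58, 8.79, 8.89, 9.54 and 9.04 at 7 Gy. The arrays with low values of Tal1, Epor and Gata1, namely replicate 5 of unirradiated WT and replicates 3 and 4 of unirradiated Il10-/-, were also low here. Between same-numbered arrays of Il10-/-, the list mean was lower after 7 Gy for replicates 1 and 2 and higher for replicates 3, 4 and 5. Tal1, Epor and Nfe2 were higher after 7 Gy for all of these replicates. Gata1, like the list mean, was lower for replicates 1 and 2 and higher for replicates 3, 4 and 5. The brightest Zfpm1 probe was higher for replicate 4 alone. Mast cell, basophil and eosinophil genes, listed as another source of Gata1, were called higher for 3 of 8 tested in WT, Cpa3 (3.86), Cma1 (3.04) and Tpsb2 (2.11). In Il10-/- 2 were called higher, Cpa3 (1.98) and Cma1 (1.71), and Il5ra was lower (−1.40). With the 75th percentile, the reference array or the series table, 4 were called higher and 2 lower in WT. Quantile normalization called 3 higher and 1 lower there. In Il10-/- 0 were called lower with the reference array, quantile normalization or the series table. The part of platelet and mast cell RNA in the values of the members was not tested.

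**Figure D4:**
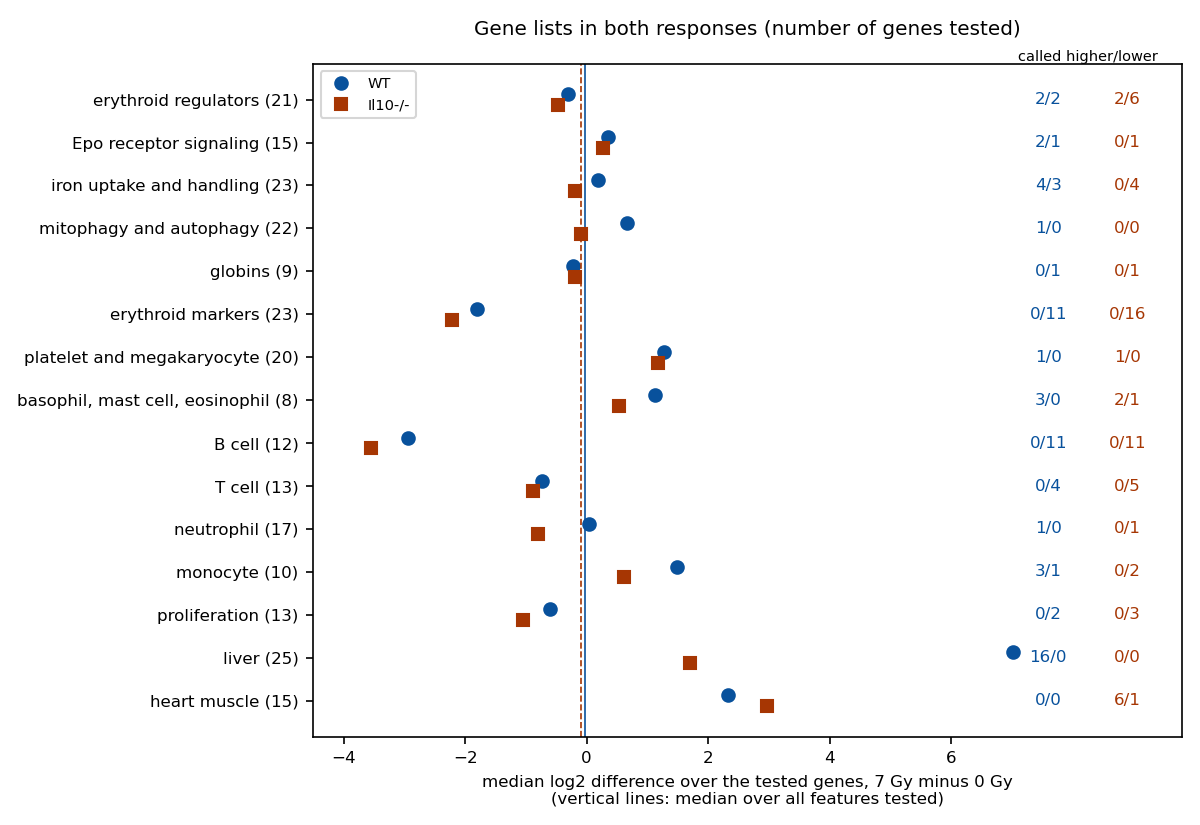
Median log2 difference between 7 Gy and 0 Gy (horizontal axis) over the tested genes of 15 lists (vertical axis, number of genes tested in parentheses) in mice labelled WT (circles) and Il10-/- (squares). Vertical lines give the median over all features (solid: WT; dashed: Il10-/-), and the numbers at the right count genes called higher and lower. Erythroid markers lie at −1.80 and −2.22 and platelet genes at 1.28 and 1.17, while globins lie at −0.23 and −0.19.

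Among the other lists, B-cell genes were called lower for 11 of 12 in both genotypes, and T-cell genes for 4 and 5 of 13. Proliferation genes were called lower for 2 and 3 of 13, and neutrophil genes were called higher for 1 of 17 in WT and lower for 1 in Il10-/-. Monocyte genes were called higher for 3 and lower for 1 of 10 in WT, and lower for 2 in Il10-/-. Heart muscle genes were called higher for 0 of 15 in WT, where 12 were above 0 with a median of 2.33, and for 6 in Il10-/-, where 1 was lower. Their mean log2 signal ran from 0.74 to 2.54 in unirradiated and 0.95 to 6.12 in irradiated WT, with replicates 1 and 2 highest, and from 0.63 to 2.95 and 1.68 to 5.90 in Il10-/-. Their source was not tested.

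No member was called between the unirradiated genotypes, where 0.845% of all features were. The unirradiated groups overlapped for all 15 tested member probes, while 4.54% of all features had no overlap. At an unadjusted p under 0.05 in limma there were 2 member probes, Epor with 1.13 (95% interval 0.05 to 2.22) and the Zfpm1 probe A_55_P1987984 with 0.99 (95% interval 0.16 to 1.82), both higher in Il10-/-. All features together had a median of 0.36 in that direction. On the brightest probes, the 5 unirradiated Il10-/- arrays spread more than those of WT for some members and less for others. The SD was larger for Epor (1.24 against 0.53), Zfpm1 (1.10 against 0.64), Gata1 (0.94 against 0.60), Tal1 (0.86 against 0.63) and Ahsp (0.98 against 0.88). It was smaller for Bcl2l13 (0.19 against 0.92), Tfrc (0.53 against 0.99), Klf1 (0.40 against 0.68), Bnip3l (0.47 against 0.68) and Nfe2 (0.62 against 0.73). An interaction term over the 20 arrays compared the responses of both genotypes. No member was called in limma, and 0% of all features were. At an unadjusted p under 0.05 there was 1 member probe, the 10-spot Tfrc probe, with a response 1.51 lower in Il10-/- (−1.51, 95% interval −2.98 to −0.03). For Ahsp the interaction was −1.02 (95% interval −2.40 to 0.36), for Tal1 −0.20 (95% interval −1.33 to 0.93) and for Epor −0.32 (95% interval −1.62 to 0.97).

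For each member the genes with the nearest profile were found by the root mean square difference of the log2 values over the 20 arrays, each gene centered on its own mean, among 18784 genes. Tal1 was nearest to Smim3 (0.14), Itgb5 (0.16) and Tmem40 (0.18), where the median over all genes was 1.14. Epor was nearest to Smim3 (0.25), Tmem40 (0.28) and Tal1 (0.28), the sole case of a member among the nearest of another. Gata1 lay by Arrb1 (0.20), Gpx4 (0.20) and Pdzk1ip1 (0.21), and Nfe2 by Rnasek (0.17), Bcap31 (0.18) and Srgn (0.20). Ahsp was nearest to Rhd (0.34) and Trim10 (0.35), and then to Fam213a (0.36). The 10-spot Tfrc probe was nearest to Icam4 (0.35), Rhag (0.40), both of the red cell surface, and Urod (0.42), of heme synthesis. Bnip3l was nearest to an unnamed array feature (0.14), Ncoa4 (0.18), which releases iron from ferritin, and Slc48a1 (0.20). The single-spot Tfrc probe had Atp6v1f (0.29), Slc16a7 (0.31) and BC040756 (0.31) as neighbors, and Zfpm1 had Rexo2 (0.27), D17Wsu92e (0.29) and Cox7a2 (0.31). Klf1 was nearest to Pnp2 (0.30), Olfr1368 (0.34) and 2900076A07Rik (0.34), against its own SD of 0.51, and Bcl2l13 to 1110004E09Rik (0.17), Riok2 (0.18) and Rpap3 (0.19).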

How the data were processed

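The members and gene lists were chosen with earlier results of these data known. The authors deposited Agilent Feature Extraction output for every array (version 10.7 in the methods and the submitters' processing notes, 12.0.2.2 in the file headers), whose processed signal is a background-corrected intensity, not normalized between arrays. They also deposited log2 values, used here as an alternative only, with every array scaled to a common reference array. Here the intensity was converted to log2, uneven spots were left out, spots of a probe were averaged, and each array's median over 39429 non-control probes was subtracted. Following the methods, a probe was kept if it was uneven or at background on fewer than 25% of the arrays. At least 20% of its values also had to lie 1.5-fold from its median. A probe with repeated spots counted as uneven on an array if all its spots were, and as at background if most of its other spots were. Each comparison was fitted in limma 3.58.1 (R 4.3.3, version 1.17.8 of data.table) on its 10 arrays, the interaction on all 20. Figures and sequences used Python 3.11.15, pandas 2.3.3 and matplotlib 3.10.9. A gene is given by its brightest probe above background, and other probes of a member are given where they differ in direction or call. Named genes of a list are up to 3 called genes with the largest rises and falls in each response, all globins, and the 3 nearest profiles of each member. Some genes that this rule names are not reported here. The fits were tested on simulated data: for the WT response, 51 of 67 features given a log2 change of 2 passed, and 5 of 67 given a change of 1. The simulated noise was independent between arrays and equal in spread between groups, unlike the measured arrays. These counts are therefore not pass rates for the measured data. Alternatives were other scalings (75th percentile, reference array, quantile), normexp, the authors' log2 values, other filters and thresholds, 1 fit of 4 groups, the slide as a block, and arrays left out. The labels list mice separately, so p-values measure the spread between these samples, and the number of arrays limits the precision.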

Additional observations from a re-analysis of the deposited data

Results flagged for a closer look

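Of 68 sets of arrays (17 member probes in 4 groups), 4 held 1 array that stood apart from the rest by Dixon's criterion at 95%, which chance alone gives in about 1 of 20 sets. Tal1 on replicate 5 of unirradiated WT read 3.75, where the next array read 4.92, and Ahsp on replicate 4 of unirradiated WT read 11.44, where the next read 9.61. The 10-spot Tfrc probe read 4.29 on that same replicate 4, where the next read 2.23. The single-spot Tfrc probe read 3.89 on replicate 5 of irradiated Il10-/-, where the next read 3.59. Replicate 5 of unirradiated WT had the lowest share of spots well above background of all arrays (29.9%), and replicate 4 had the highest mean log2 signal of the erythroid markers in its group (7.26). The part of either in these values was not tested.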

How the results depend on the processing

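Counts of called members kept within 1.5 times of 4 (WT) and 3 (Il10-/-) under the other scalings, filters, thresholds and fits, apart from normexp background correction, which left 1 and 0 and called only 268 and 0 features in all. Leaving out each array gave 2 to 4 in WT, 3 to 3 in Il10-/-, and 0 between genotypes and in the interaction. With the mean of replicates 1 and 2 as 1 sample, chosen after the data were seen, 2 and 1 genes were called. With both weakest arrays left out, also chosen later, the counts stayed at 4 and 3. The slide, as a replicate block, left 4, 3, 0 and 0 genes called, and 1626, 1290, 384 and 0 of all features in place of 1263, 1702, 157 and 0. Same-numbered arrays share a slide and a scan, but the labels pair no mice, their deviations correlated by −0.658 to 0.683, and in no pair of groups were all above 0.1. Tal1 in Il10-/- was called with the series table (1.68), the reference array, quantile normalization, a rate under 5% alone and 1 fit of 4 groups. Zfpm1 in WT turned to 0.54 with normexp, and its probe A_55_P1987984, 0.03 as reported, read −0.19 with the 75th percentile, −0.077 with the reference array, −0.055 from the series table, −0.083 without the weakest arrays, and −0.083 to 0.12 with single arrays left out. The share of calls going up moved with the scaling: of all features called, 832 were higher and 431 lower in WT as reported, 795 and 761 with the 75th percentile, 705 and 693 with quantile normalization, and 695 and 878 without unirradiated WT replicate 5. In Il10-/- 611 and 1091 became 935 and 919 with the reference array, where the median of all features moved from −0.10 to 0.15. Between the genotypes at 0 Gy 157 and 0 became 41 and 2 with the 75th percentile, with the median of all features at −0.07 in place of 0.36. With normexp the 10-spot Tfrc probe gave no value, since it did not pass the filter on change. Klf1, the Zfpm1 probe A_55_P1987984 and the 10-spot Tfrc probe were not well above background on every array, which limits their differences.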
